A study of Homo sapiens with 16 samples.

Results

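The interleukin-1 (IL-1) family genes IL1A, IL1B, IL1R1, IL1RAP, IL1RL1, IL18, IL33, IRAK1 and IRAK2 were followed across RNA-seq libraries of LN229, an established human glioblastoma (GBM) cell line. The 9 genes formed a list by family, with no threshold on their values, and were looked up by their Entrez identifiers. The list was given with earlier results of these data known, so its counts of calls are not those of a blind choice. It leaves out other family genes, which are counted in separate lists below. Of the 9 genes, 7 had a row in the tables of both experiments, which list 13559 and 14024 genes, with 13475 genes in common. IL18 (3606) and IL33 (90865) had no row in either table and are not analysed here.

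There were 16 libraries in 8 groups of 2. In the first experiment, untreated cells were kept in the regular condition or in the ischemic condition, a culture that mimics poor blood supply by low oxygen, glucose, glutamine and serum. In the second experiment, cells in either condition received DMSO, which is the solvent, VX745, an inhibitor of the stress kinase p38α, or MK25, an inhibitor of MK2, a kinase that p38α activates. All groups are the same LN229 line, which the study did not authenticate, and a single line limits what the groups can stand for. The time that the sequenced cells spent in the ischemic condition, and whether the 2 libraries of a group came from separate cultures, are not given in the sources used here, so the p-values measure only the spread between these libraries, which may be technical.

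IL-1α (IL1A) and IL-1β (IL1B) are inflammatory cytokines that bind the same receptor, IL1R1. The bound receptor recruits the accessory protein IL1RAP, and the pair signals through the adaptor MYD88 and the kinases of the IRAK family to NF-κB and the MAP kinases, p38 among them. IL-33 is an alarmin released by damaged cells and is read by another receptor of the family, ST2 (IL1RL1), which also pairs with IL1RAP and has a secreted form that acts as a decoy. IL-18 is processed by the inflammasome as IL-1β is. Many messages of inflammatory cytokines carry AU-rich elements, built on the letters ATTTA, and MK2 is known to act on proteins that bind such elements.

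The values were log2 normalized counts scaled to library size (CPM) as the authors deposited them. Reads on listed genes numbered 22346073 to 28373993 per library in experiment 1 and 20122017 to 37562668 in experiment 2, where the 6 ischemic libraries held 27239609 to 37562668 reads and the 6 regular libraries 20122017 to 30228774. IL1B had the fewest reads of any single library, with 31 to 816 per library, and IRAK1 was the deepest gene, with 6371 to 11994. The low end of IL1B was in experiment 1. In experiment 2 the fewest reads were 91 for IL1RL1, 94 for IL1A and 110 for IL1B. All 7 genes lay above the floor of 3 reads in every library. All 8 glioma markers looked for (VIM, NES, CD44, SOX2, GFAP, OLIG2, S100B and EGFR) had a row. Their summed level was 4027 to 4583 CPM in the regular libraries and 5818 to 8318 CPM in the ischemic ones. The sum leans on VIM, the highest of them, and the single markers went both ways. By limma adjusted p under 0.05, 2 were higher and 5 lower under ischemia in untreated cells, beside 35.2% of all genes in each direction. With DMSO 3 were higher and 4 lower, beside 34.4% and 35.2%. Their median log2 differences were -0.82 and -0.39. Of 12 leukocyte markers, CD68 and ITGAM had a row in experiment 1 and CSF1R as well in experiment 2, while PTPRC, CD14 and the others had none. The summed level of those with a row in experiment 1 was 22.4 to 23.6 CPM in regular and 36.8 to 42.0 CPM in ischemic libraries. In experiment 2 it was 31.3 to 40.1 CPM in regular and 56.65 to 67.1 CPM in ischemic libraries. This sum leans on CD68, since ITGAM had 4 to 119 reads per library and CSF1R 12 to 44. None of 4 endothelial markers had a row. The part of these marker levels and of depth in the results was not tested.

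Positions are those of RefSeq on GRCh38.p14. IL1A (Entrez 3552, chr2:112773925-112784493) and IL1B (3553, chr2:112829751-112836779) lie close together on the minus strand, and IL1R1 (3554, chr2:102070390-102179874) and IL1RL1 (9173, chr2:102311563-102352356) are in the receptor cluster of the same chromosome. IL1RAP (3556, chr3:190514085-190659750) and IRAK2 (3656, chr3:10164919-10243745) are on chromosome 3 and IRAK1 (3654, chrX:154010507-154019902) on the X chromosome. In the GENCODE 44 annotation, exons of IL1RL1 overlap those of IL18R1 by up to 95 bases on the same strand and exons of IL1R1 overlap its antisense gene IL1R1-AS1 by up to 11 bases. Strand was not stated for the counting, so reads from these stretches are uncertain.

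The AU-rich stretches after the stop codon are shown because MK2 was one of the inhibited kinases. Each is a 30-base window within 1 exon that holds the most ATTTA in the transcript, with ATTTA in capitals. The transcript is the canonical one and, for IL1RL1, ENST00000311734, which has a shorter reading frame (GENCODE 44 on GRCh38, 5′ to 3′).
IL1A (minus strand, chr2:112774424-112774453): tATTTAtatatgtATTTAtaaatatATTTA
IL1B (minus strand, chr2:112830003-112830032): tgagcaaccgcttccctATTTATTTATTTA
IL1RAP (plus strand, chr3:190651254-190651283): ctaattacaaaatcatatacgATTTATTTA
IL1RL1, shorter reading frame (plus strand, chr2:102343969-102343998): ataaagaaatacctgagactgggtgATTTA
ATTTA occurred 5 times in the 1142 bases after the stop codon of IL1A, 6 times in 610 bases of IL1B and 15 times in 2809 bases of IL1RAP, overlapping matches included. Per kilobase, these densities were at percentiles 86.9, 98.9 and 91.8 of 18153 protein-coding transcripts with at least 100 such bases, of which 71.3% hold an ATTTA. IL1R1 held 8 in 3115 bases (percentile 65.3), IRAK2 held 3 in 1517 (percentile 55.3) and IRAK1 held 1 in 1352 (percentile 34.2). The canonical IL1RL1 transcript held 0 in 116 bases (percentile 0), whereas that with the shorter reading frame, whose 3′ end differs, held 3 in 2668 (percentile 40.4). Values per gene do not separate these 2 transcripts. Not printed are the windows of the canonical IL1RL1 transcript, with 0 ATTTA, and of IL1R1, with 1. IL1R1 was also called lower with MK25 under ischemia. The longer word TATTTAT was found 4 times in IL1B, 3 times in IL1A, 2 times in IL1RAP, and 1 time each in IRAK2 and the IL1RL1 transcript with the shorter reading frame, and 33.5% of all transcripts hold it.

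The promoter windows of the 2 ligands are shown because both genes rose under ischemia while their windows differ. They run from 250 bases before to 50 bases after the RefSeq start on GRCh38.p14, on the minus strand, and capitals mark AP-1 words (TGACTCA or TGAGTCA) and the hypoxia response core (ACGTG or CACGT).
IL1A (chr2:112784444-112784743): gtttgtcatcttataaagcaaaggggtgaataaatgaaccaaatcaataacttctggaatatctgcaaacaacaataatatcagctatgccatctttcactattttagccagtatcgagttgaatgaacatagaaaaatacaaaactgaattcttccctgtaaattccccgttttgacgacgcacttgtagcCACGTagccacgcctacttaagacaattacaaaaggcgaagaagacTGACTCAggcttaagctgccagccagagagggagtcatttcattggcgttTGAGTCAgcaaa
IL1B (chr2:112836730-112837029): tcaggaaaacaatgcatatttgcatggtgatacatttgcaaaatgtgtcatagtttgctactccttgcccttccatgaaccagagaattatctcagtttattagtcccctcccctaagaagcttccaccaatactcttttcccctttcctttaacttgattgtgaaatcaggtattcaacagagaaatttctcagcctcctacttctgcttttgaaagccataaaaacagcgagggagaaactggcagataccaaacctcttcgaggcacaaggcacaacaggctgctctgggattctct
The IL1A window held an AP-1 word starting at base -12 and another at base 39 from the start, and a hypoxia core at base -58. RefSeq lists another IL1A start downstream, whose window holds the same words. Among 35116 windows of the same length, 4.95% held an AP-1 word, 21.4% the hypoxia core and 11.3% the κB consensus, which was searched on both strands. None of these was in the IL1B window. Of the other members with a row, 1 of 4 IL1R1 windows held a hypoxia core, the IRAK1 window held 1 AP-1 word and 1 κB match, and the windows of IL1RAP, IL1RL1 and IRAK2 held none.

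To see how the family answered ischemia, the ischemic and regular conditions were first compared. Both IL-1 ligands, the accessory receptor IL1RAP and the IL-33 receptor IL1RL1 were higher in the ischemic condition in both experiments, by 3-fold to 12-fold, whereas the primary receptor IL1R1 and the kinases IRAK1 and IRAK2 stayed within 2-fold. With a call defined as an adjusted p under 0.05 from limma and at least 2-fold, 4 of 7 members were called higher and 0 lower in untreated cells, beside 11.3% of all genes called higher and 9.1% called lower. In DMSO-treated cells it was again 4 higher and 0 lower, beside 9.03% and 8.11% of all genes. The median difference of the 7 members was 2.07 on the log2 scale in untreated and 1.61 in DMSO-treated cells, beside -0.009 and -0.0068 over all genes. Since these are bulk RNA values, a change in the share of cells and a change in RNA per cell cannot be told apart.

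IL1A, which encodes a ligand that is active in its precursor form, had log2 levels of 1.28 and 1.43 in the regular untreated libraries and of 4.92 and 4.88 in the ischemic ones. With DMSO, the levels were 2.82 and 3.10 in the regular and 5.32 and 5.25 in the ischemic libraries. Both ischemic libraries lay above both regular ones in each experiment. The difference was 3.55 in untreated cells (11.7-fold, limma adjusted p = 2.508e-10) and with DMSO it was 2.32 ± 0.13 (SE, n = 2 per group), a 5.00-fold rise (limma adjusted p = 3.59e-11).

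IL1B, whose product must be cleaved before it is active, had log2 levels of 0.42 and 0.56 in the regular untreated libraries and of 2.53 and 2.59 in the ischemic ones. With DMSO, they were 3.09 and 3.14 against 4.81 and 4.80. The groups did not overlap. The rise was 2.07 ± 0.19 in untreated cells (4.2-fold, limma adjusted p = 1.135e-06) and 1.69 ± 0.10 with DMSO (3.23-fold, adjusted p = 1.066e-10). The 2 tables were normalized separately, so levels of the first experiment are not compared with those of the second.

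IL1RAP, the co-receptor shared by the IL-1 and IL-33 receptors, had log2 levels of 4.75 and 4.78 in regular untreated libraries and of 7.17 and 7.01 in ischemic ones. With DMSO, the values were 4.54 and 4.59 against 6.15 and 6.20. It rose by 2.33 ± 0.08 (5.01-fold, limma adjusted p = 1.31e-10) and 1.61 ± 0.08 (3.04-fold, adjusted p = 5.349e-12), again with no overlap of libraries.

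IL1RL1 had log2 levels of 1.35 and 1.39 in regular untreated libraries and of 4.83 and 4.45 in ischemic ones. With DMSO, they were 2.56 and 2.37 against 4.45 and 4.52. The rise was 3.27 ± 0.15 in untreated cells (9.66-fold, limma adjusted p = 2.008e-09) and 2.02 ± 0.11 with DMSO (4.05-fold, adjusted p = 3.787e-11). In untreated cells, 148 of 13559 genes had a larger positive difference, and with DMSO 325 of 14024 had. IL33, the gene of its ligand, was one of the genes with no row.

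IL1R1, the receptor of both ligands, had log2 levels of 4.16 and 4.14 in regular untreated libraries and of 3.67 and 3.50 in ischemic ones, a difference of -0.57 ± 0.11 (limma adjusted p = 0.0005485) that was under 2-fold. With DMSO, the regular libraries were at 3.85 and 3.80 and the ischemic ones at 3.85 and 3.61, which overlapped, and the difference was -0.10 with a 95% interval from -0.32 to 0.12 (adjusted p = 0.4109). IRAK1, a kinase that leaves the receptor complex to activate TRAF6, differed by -0.30 ± 0.07 in untreated cells (adjusted p = 0.001361) and by -0.0024 with DMSO (interval from -0.13 to 0.12, adjusted p = 0.9743). With quantile normalization, the IRAK1 difference with DMSO was -0.26 (adjusted p = 0.0007188). IRAK2, a related member of the complex, differed by 0.27 (adjusted p = 0.09068) and by 0.092 (adjusted p = 0.4331). Thus, these 3 genes passed no call of 2-fold in either experiment.

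**Figure D1:**
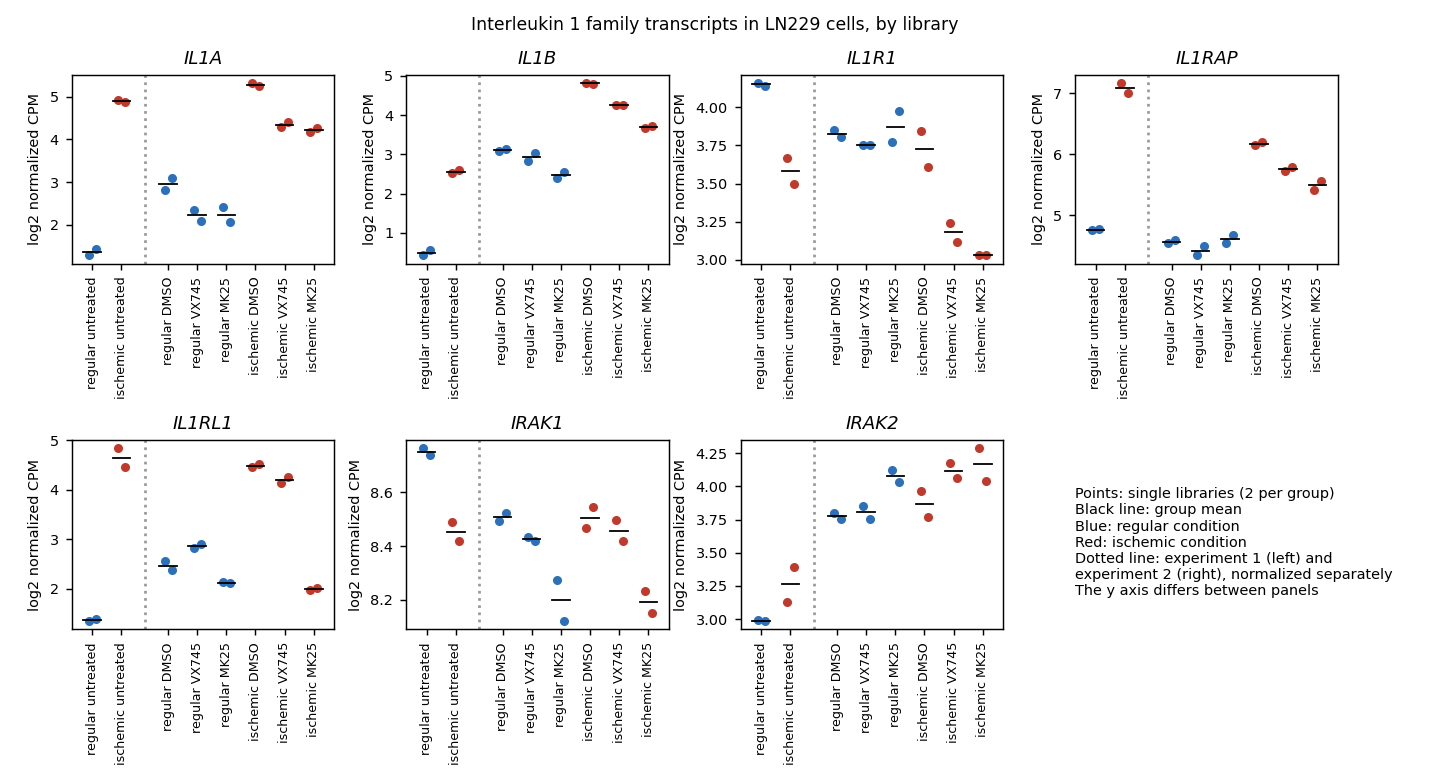
Log2 normalized CPM (y axis, scaled per gene) of the 7 members in each library (points) by group (x axis), with group means as black lines, the first experiment left of the dotted line and the second right of it. IL1A, IL1B and IL1RAP are higher in every ischemic library than in any regular library of the same experiment, and IL1RL1 falls to 1.98 and 2.01 in the ischemic libraries with MK25.

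To ask what the inhibitors did to the family under ischemia, the ischemic libraries with VX745 or MK25 were compared with those with DMSO. With MK25, 5 of 7 members were lower by at least 1.5-fold, IL1RL1 the most, and with VX745 IL1A was lower by that much. A call here was an adjusted p under 0.05 from limma and at least 1.5-fold. MK25 gave 5 members called lower and 0 higher, beside 2.65% of all genes called lower and 7.02% called higher. VX745 gave 1 called lower and 0 higher, beside 0.906% and 4.35%. By adjusted p alone, 6 members were lower and 1 higher with MK25 and 4 were lower with VX745, beside 22% and 14.9% of all genes lower. Of 14024 genes, 2770 were higher with MK25 by adjusted p alone. With quantile normalization, the genes called higher and lower went from 985 and 371 to 629 and 486 for MK25 and from 610 and 127 to 322 and 192 for VX745, and 2 members were called with VX745. The median member difference was -0.70 with MK25 and -0.42 with VX745, beside -0.0011 and 0.0029 over all genes. The glioma markers summed to 5818 to 5906 CPM with MK25, 6390 to 6399 CPM with VX745 and 7122 to 7138 CPM with DMSO, whose part in these differences was not tested. The inhibitor comparisons share the DMSO libraries, so their values are set side by side without a test of likeness.

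IL1RL1 was at log2 levels of 4.45 and 4.52 in the ischemic DMSO libraries, 4.13 and 4.25 with VX745 and 1.98 and 2.01 with MK25. Those with MK25 lay below every other ischemic library and below both regular DMSO libraries. The difference from DMSO was -2.49 ± 0.11 with MK25 (5.6-fold lower, limma adjusted p = 9.81e-11), and 6 of the 14024 genes had a lower difference. With VX745 it was -0.29 ± 0.11 (adjusted p = 0.05988), and this p lay between 0.008792 and 0.07157 over the alternative settings with all libraries, and reached 0.3106 without the first ischemic VX745 library. Compared directly, MK25 was 2.20 lower than VX745 (4.58-fold, adjusted p = 5.338e-10). The fall with MK25 stayed between -2.52 and -2.45 when any 1 library was left out.

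IL1A was at 5.32 and 5.25 with DMSO, 4.29 and 4.40 with VX745 and 4.17 and 4.26 with MK25 under ischemia. Both inhibitor groups lay below DMSO and still above every regular library. The difference was -0.94 ± 0.13 with VX745 (1.91-fold lower, limma adjusted p = 5.553e-05) and -1.07 ± 0.13 with MK25 (2.1-fold lower, adjusted p = 5.87e-06). MK25 minus VX745 was -0.13 with a 95% interval from -0.40 to 0.14 (adjusted p = 0.5328).

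IL1B was at 4.81 and 4.80 with DMSO, 4.27 and 4.25 with VX745 and 3.67 and 3.71 with MK25. No group overlapped another. It differed by -0.55 ± 0.10 with VX745 (1.46-fold lower, limma adjusted p = 0.0007271, short of the 1.5-fold call) and by -1.12 ± 0.10 with MK25 (2.17-fold lower, adjusted p = 2.492e-07). MK25 was lower than VX745 by 0.57 (1.48-fold, adjusted p = 0.0006005), and without the second ischemic MK25 library that difference reached 1.51-fold.

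IL1RAP was at 6.15 and 6.20 with DMSO, 5.73 and 5.79 with VX745 and 5.41 and 5.57 with MK25. Its difference was -0.42 ± 0.08 with VX745 (1.33-fold lower, limma adjusted p = 0.0007458) and -0.69 ± 0.08 with MK25 (1.61-fold lower, adjusted p = 2.854e-06). MK25 and VX745 differed by -0.27 (adjusted p = 0.02006), with an adjusted p of 0.203, 0.06705 or 0.163 without the first MK25, first VX745 or second VX745 ischemic library. Every ischemic library of IL1RAP still lay above every regular one.

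IL1R1 was at 3.85 and 3.61 with DMSO, 3.24 and 3.12 with VX745 and 3.03 and 3.03 with MK25. Both libraries of each inhibitor lay below both DMSO libraries. It differed by -0.55 ± 0.11 with VX745 (1.46-fold lower, limma adjusted p = 0.001128) and by -0.70 ± 0.11 with MK25 (1.62-fold lower, adjusted p = 6.661e-05). These calls depend on the DMSO libraries, since the MK25 fold was 1.49 without the first DMSO library and the VX745 fold 1.59 without the second. Without the first VX745 library the VX745 fold was 1.53.

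IRAK1 was at 8.47 and 8.55 with DMSO, 8.50 and 8.42 with VX745 and 8.23 and 8.15 with MK25. It differed by -0.049 with VX745 (limma adjusted p = 0.5757, and 0.082 with quantile normalization) and by -0.32 ± 0.06 with MK25 (adjusted p = 0.0004359, and -0.15 at 0.05845 with quantile normalization). IRAK2 was at 3.97 and 3.77 with DMSO, 4.18 and 4.06 with VX745 and 4.29 and 4.05 with MK25. Its difference was 0.25 with VX745 (adjusted p = 0.07224) and 0.30 ± 0.10 with MK25 (adjusted p = 0.02597), but with MK25 the adjusted p was 0.2768 without the first MK25 library, 0.2284 without the second DMSO library and 0.07661 with quantile normalization. Both kinases stayed under 1.5-fold with either inhibitor.

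Set against each other under ischemia, MK25 and VX745 differed in 1 called member, IL1RL1, beside 2.2% of genes called lower with MK25 and 1.75% called higher. By adjusted p alone, 4 members were lower with MK25 (IL1RL1, IL1B, IL1RAP and IRAK1), beside 10.2% of all genes. IRAK1 differed by -0.27 (limma adjusted p = 0.003975), and by -0.23 without the second MK25 library (0.05674) or the first VX745 library (0.0725). The intervals of the members short of the threshold ran from -0.40 to 0.14 for IL1A, from -0.37 to 0.075 for IL1R1 and from -0.17 to 0.26 for IRAK2.

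**Figure D2:**
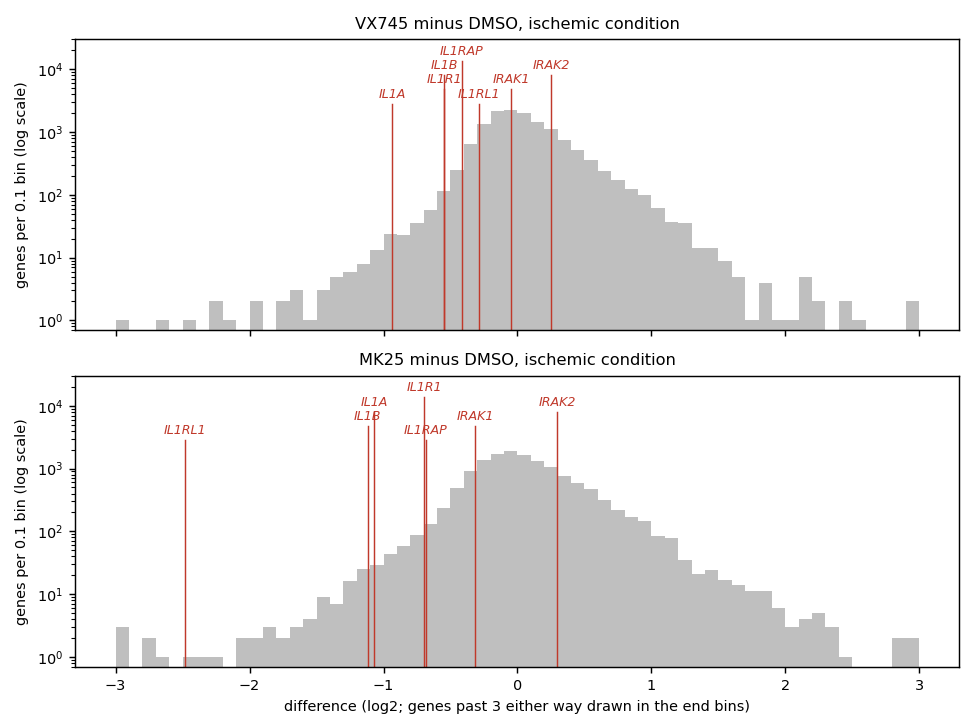
Number of genes (y axis, log scale) by log2 difference from DMSO under ischemia (x axis, bins of 0.1) for VX745 above and MK25 below, with the 7 members as red lines. IL1RL1 is at -0.29 with VX745 and at -2.49 with MK25, in the far lower tail.

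In the regular condition, ligand genes were called lower with the inhibitors, by less than 2-fold, and no receptor or kinase was called. With VX745, IL1A alone was called lower, beside 0.0357% of all genes, and the 9 genes called higher and 5 called lower became 7 and 7 with quantile normalization. With MK25, IL1A and IL1B were called lower and 0 members higher, beside 0.606% of genes called lower and 1.88% called higher. IL1A was at 2.82 and 3.10 with DMSO, 2.35 and 2.10 with VX745 and 2.41 and 2.06 with MK25, on 94 to 220 reads per library. It differed by -0.74 ± 0.13 with VX745 (limma adjusted p = 0.01967), a call that was lost without the second DMSO library (adjusted p = 0.2805), without the second VX745 library (0.1704), with no variance trend (0.1665), with voom on the recovered reads (0.09203) and with only the 2 groups compared (0.1312). With MK25 it differed by -0.73 ± 0.13 (adjusted p = 0.001164), and by 1.47-fold without the second MK25 library.

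IL1B was at 3.09 and 3.14 with DMSO, 2.82 and 3.04 with VX745 and 2.41 and 2.55 with MK25 in the regular condition. It fell by 0.64 ± 0.10 with MK25 (limma adjusted p = 0.0004336), which was 1.48-fold without the first MK25 library, and differed by -0.18 with VX745 (adjusted p = 0.4067). IL1RL1 was at 2.56 and 2.37 with DMSO, 2.83 and 2.89 with VX745 and 2.14 and 2.11 with MK25. Its differences were 0.40 ± 0.11 with VX745 (adjusted p = 0.1287) and -0.34 ± 0.11 with MK25 (adjusted p = 0.05391, from 0.03628 to 0.2708 over the alternative settings). MK25 minus VX745 was -0.74 for IL1RL1 in the regular condition (adjusted p = 0.0003671).

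No other member was called in the regular condition. IL1R1 was at 3.85 and 3.80 with DMSO, 3.75 and 3.75 with VX745 and 3.77 and 3.97 with MK25, with differences of -0.077 and 0.046 (limma adjusted p = 0.7832 and 0.8231). IL1RAP was at 4.54 and 4.59, 4.34 and 4.49, and 4.55 and 4.68 in that order, with differences of -0.15 and 0.042 (adjusted p = 0.3584 and 0.7679). IRAK1 was at 8.49 and 8.52, 8.43 and 8.42, and 8.27 and 8.12, and its difference with MK25 was -0.31 ± 0.06 (limma adjusted p = 0.002104). IRAK2 was at 3.80 and 3.75, 3.85 and 3.76, and 4.13 and 4.03, with a difference of 0.30 with MK25 (adjusted p = 0.06). For IRAK1 with MK25 the differences under ischemia and in the regular condition were -0.32 and -0.31, and the interaction was -0.0046 with an interval from -0.18 to 0.17.

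**Figure D3:**
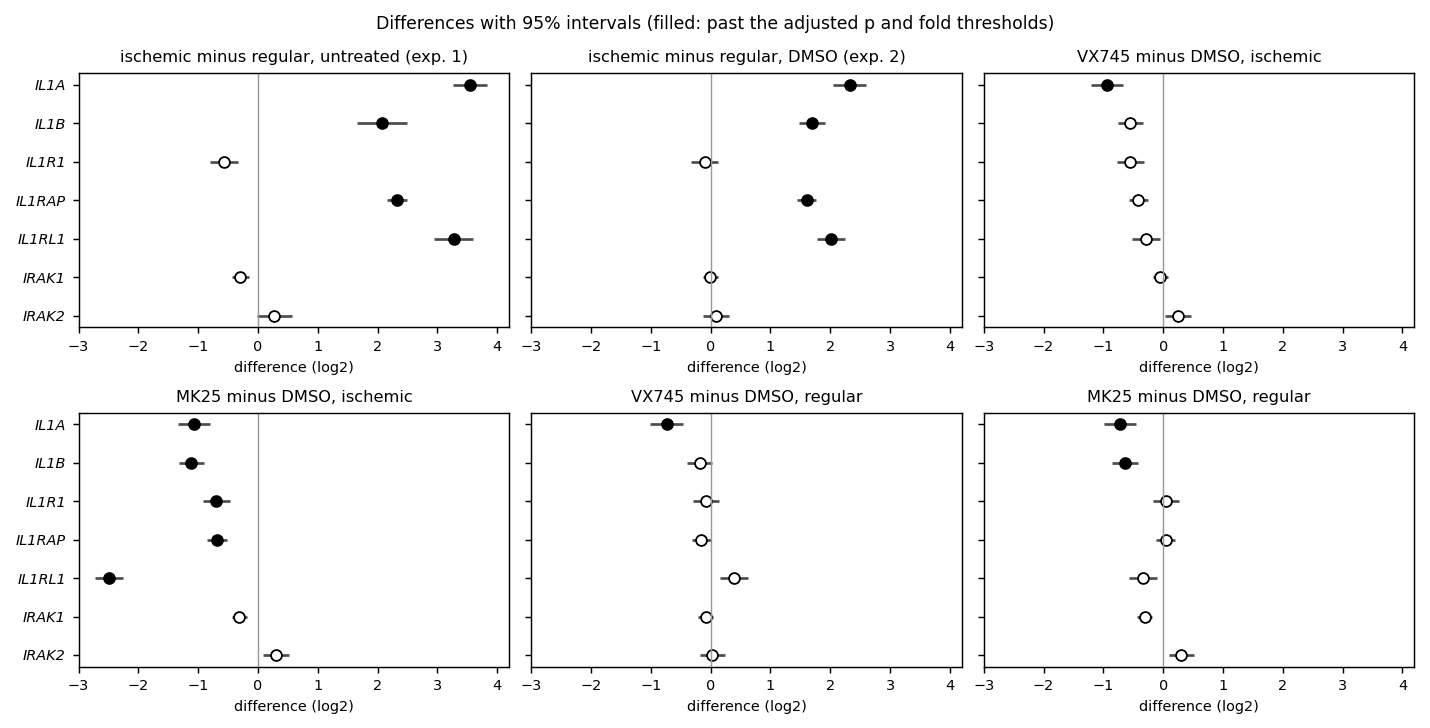
Log2 differences (x axis) of the 7 members with 95% intervals (bars) in 6 comparisons, with filled points for members past both the adjusted p and the fold threshold. Of 7 members, 4 are filled to the right of 0 for ischemia in both experiments and 5 are filled to the left of 0 for MK25 under ischemia.

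Whether an inhibitor acted differently in the 2 conditions was tested by the interaction, the inhibitor difference under ischemia minus that in the regular condition. For MK25, 4 members passed in the lower direction, beside 13.9% of all genes, and 0 in the higher, beside 10.5%. They were IL1RL1 at -2.14 ± 0.16 (limma adjusted p = 8.405e-08), IL1R1 at -0.74 ± 0.15 (adjusted p = 0.001834), IL1RAP at -0.73 ± 0.11 (adjusted p = 0.0001541) and IL1B at -0.48 ± 0.14 (adjusted p = 0.02055). The 3 receptor genes kept their call without any 1 library. IL1B lost it without the first ischemic MK25 library (adjusted p = 0.06635), either ischemic DMSO library (0.06318 and 0.05112) or the second regular MK25 library (0.06535). IL1A was at -0.34 (adjusted p = 0.1801), and at -0.52 without the second regular MK25 library (adjusted p = 0.04614).

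For VX745, IL1RL1 passed at -0.69 ± 0.16 (limma adjusted p = 0.01061), beside 6% of all genes in the lower direction, and 0 members passed in the higher, beside 5.78%. It missed the threshold without the first ischemic VX745 library (adjusted p = 0.06853). IL1R1 was at -0.47 with an adjusted p of 0.05057, and passed with libraries centred on their median (0.04038), with quantile normalization (0.03333), once genes averaging under 1 CPM were dropped (0.04829), and without the second ischemic DMSO library (0.03195) or either regular MK25 library (0.0435 and 0.04425). The genes higher and lower in this interaction numbered 811 and 842, and 724 and 1070 after median centring or 590 and 436 after quantile normalization. For IL1RL1, neither part of the VX745 interaction passed alone in the main fit. The difference was -0.29 under ischemia (limma adjusted p = 0.05988) and 0.40 in the regular condition (limma adjusted p = 0.1287).

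The same data read as ischemic minus regular within a treatment show what was left of the rise. For IL1RL1 it was 2.02 with DMSO, 1.33 with VX745 and -0.12 with MK25, the last with a 95% interval from -0.36 to 0.11. For IL1A it was 2.32, 2.12 and 1.98, and for IL1B 1.69, 1.33 and 1.21. IL1RAP went from 1.61 to 1.34 and 0.88. IL1R1 went from -0.10 to -0.57 with VX745 and -0.84 with MK25 (limma adjusted p = 0.0001367 and 1.892e-06). IRAK2 was at 0.092, 0.31 and 0.086, and IRAK1 at -0.0024, 0.033 and -0.0069. Therefore IL1A, IL1B and IL1RAP remained higher under ischemia with every treatment, and IL1RL1 did with DMSO and VX745 (limma adjusted p at most 2.051e-08).

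**Figure D4:**
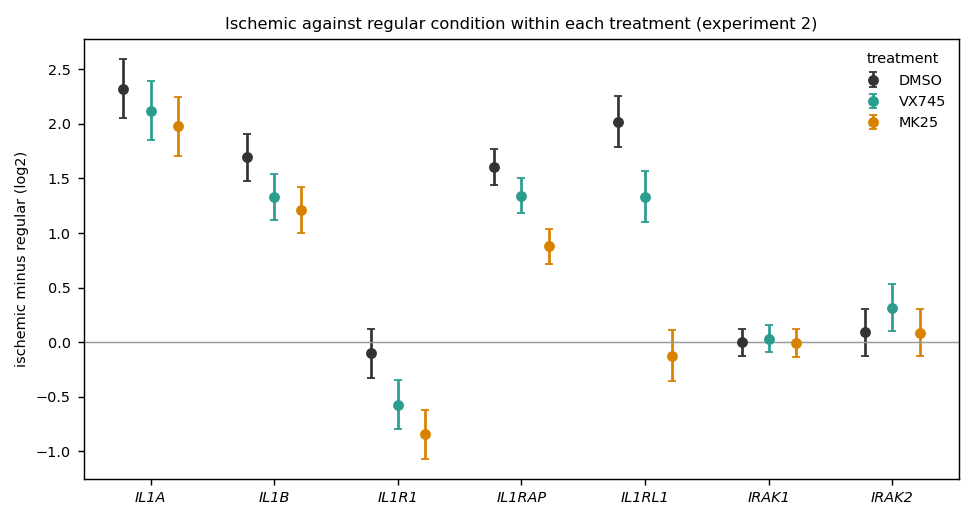
Ischemic minus regular log2 difference (y axis) of each member (x axis) with DMSO, VX745 or MK25 in the second experiment, with 95% intervals as bars. IL1RL1 goes from 2.02 with DMSO to -0.12 with MK25, while IL1A stays between 1.98 and 2.32.

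The order of the 6 groups of the second experiment differed between members. IL1A, IL1B and IL1RAP were highest with ischemic DMSO, followed by ischemic VX745 and ischemic MK25, and then by the regular groups. Neighbouring groups in that order did not differ beyond their spread for IL1A between ischemic VX745 and MK25 and between regular MK25 and VX745, nor for IL1B between regular DMSO and VX745, nor for IL1RAP between neighbouring regular groups. IL1RL1 ran from ischemic DMSO and ischemic VX745 to regular VX745, regular DMSO, regular MK25 and ischemic MK25, and the step that passed was that from ischemic to regular VX745 (1.33). IL1R1 had its 3 regular groups and ischemic DMSO together at 3.73 to 3.87 and ischemic VX745 and MK25 below at 3.18 and 3.03. IRAK1 spanned 8.19 to 8.51 and IRAK2 spanned 3.78 to 4.17 over the 6 groups.

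Per kilobase of canonical transcript, on the log2 CPM scale, the ischemic DMSO levels were 6.67 for IRAK1, 4.27 for IL1A, 4.22 for IL1B, 3.93 for IL1RAP, 3.49 for IL1RL1, 2.09 for IRAK2 and 1.35 for IL1R1. In regular DMSO libraries they were 6.67 for IRAK1, 2.52 for IL1B, 2.32 for IL1RAP, 1.998 for IRAK2, 1.95 for IL1A, 1.47 for IL1RL1 and 1.45 for IL1R1. The IL1RL1 level rests on a length of 1997 bases, and the transcript with the shorter reading frame has 3994. IRAK1 lay at percentile 96.7 of the listed genes by its mean log2 level in the second experiment, and the other 6 between percentiles 28.5 and 58.4.

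Over the 12 libraries of the second experiment, which share their 6 conditions, IL1A correlated with IL1RAP at r = 0.97 and with IL1B at r = 0.96, and IL1RL1 correlated with IL1B at r = 0.82 and with IL1A at r = 0.67. IL1R1 was at r = -0.51 with IL1A. Among 12271 genes with a mean log2 level of at least 1, the patterns closest to IL1RL1 were those of FERMT1 (r = 0.985), NT5E (0.983) and SLC14A1 (0.979). Those closest to IL1A were CSGALNACT2, WASL and EMD (0.986 to 0.993), to IL1B WDR1, SH3GL1 and NRP1 (0.988 to 0.989), and to IL1RAP THBS2, SLC30A1 and ARHGEF2 (0.995 each). For IL1R1 they were GNL3L, CCNYL1 and ACTL6A (0.969 to 0.973). The kinases had looser matches, THOP1, MYBL2 and TOMM34 for IRAK1 (0.94 to 0.943) and FBXL2, PDXK and PINK1 for IRAK2 (0.884 to 0.916). These are the highest values of a search over many genes and are given as a description.

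The rest of the family was sparse. Of 8 other ligands and inhibitors, IL36G, IL37 and IL18BP had a row in experiment 1, the latter pair in experiment 2 too, while the receptor antagonist gene IL1RN had none in either. IL37, an anti-inflammatory member, was called higher under ischemia in both experiments (1.28 and 1.60, limma adjusted p = 0.00123 and 2.288e-05), on 13 to 86 reads per library, and lower with VX745 under ischemia (-0.71, adjusted p = 0.04267). IL36G was called higher in untreated cells on 9 to 44 reads. IL18BP, the decoy that binds IL-18, differed by -0.86 and -0.92 (adjusted p = 0.002279 and 1.285e-05), short of 2-fold. In counts, 2 of 3 and 1 of 2 were called higher for ischemia, beside 11.3% and 9.03% of all genes, and 1 of 2 lower with VX745 under ischemia, beside 0.906%. This list had 0 calls for MK25 under ischemia (7.02% of all genes higher, 2.65% lower), for VX745 (0.0642%, 0.0357%) or MK25 (1.88%, 0.606%) in the regular condition, and for MK25 against VX745 (1.75%, 2.2%). With 2 genes, 0 calls cannot be set apart from these shares. The median for ischemia was 1.28 and 0.34.

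Of 7 other receptors, 4 had a row in experiment 1 and 3 in experiment 2, and the decoy receptor gene IL1R2 had none. IL18R1, which lies beside IL1RL1 and shares exon bases with it, was called higher under ischemia by 1.99 ± 0.11 and 1.23 ± 0.09 (limma adjusted p = 1.208e-08 and 1.68e-09) and lower with MK25 under ischemia by -0.95 ± 0.09 (adjusted p = 4.127e-07). Its value with VX745 was -0.52 (adjusted p = 0.0004598). IL18RAP rose by 2.79 in untreated cells on 9 to 109 reads. IL1RAPL1, a brain member of the family, rose by 1.76 with DMSO under ischemia and was lower by -0.90 with MK25 (adjusted p = 9.029e-08 and 0.0005791). SIGIRR, an inhibitory receptor, was called in none of the comparisons. In counts, 2 of 4 and 2 of 3 were called higher for ischemia, and 2 of 3 were called lower with MK25, 0 with VX745, and 1 of 3 lower with MK25 than with VX745. The shares of all genes called in these directions were 11.3% and 9.03% for ischemia, 2.65% with MK25, 0.906% with VX745 and 2.2% for MK25 against VX745. The medians were 1.48 and 1.23 for ischemia, -0.90 with MK25 and -0.093 with VX745.

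Of 18 shared signalling genes below the receptor, 17 had a row. In untreated cells 0 were called higher and 1 lower under ischemia (PELI3, an E3 ligase that acts on IRAK proteins, -1.11), and with DMSO 1 higher and 0 lower (UBE2V1, 1.26, uncertain because it shares exons with a read-through gene). The shares of all genes called were 11.3% higher and 9.1% lower in untreated cells and 9.03% and 8.11% with DMSO. By adjusted p alone, 7 were higher and 5 lower in untreated cells, beside 35.2% of all genes in each direction, and 7 were higher and 6 lower with DMSO, beside 34.4% and 35.2%. With MK25 under ischemia, 1 was called higher (PELI3, 0.89, limma adjusted p = 3.763e-07) and 0 lower, beside 7.02% and 2.65% of all genes. VX745 called 0 in either condition. The shares of all genes called higher and lower with VX745 were 4.35% and 0.906% under ischemia and 0.0642% and 0.0357% in the regular condition. The medians were 0.03 and 0.063 for ischemia, -0.053 with MK25 and -0.076 with VX745 under ischemia. MYD88 differed by -0.79 and -0.60 under ischemia (adjusted p = 3.088e-06 and 5.067e-07), short of 2-fold. TRAF6 and IRAK4 stayed under 1.5-fold in all 6 comparisons of ischemia or an inhibitor.

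Of 16 genes of ligand maturation and release, 11 had a row. CASP1, which cleaves IL-1β and IL-18, and its partner PYCARD had none. None was called for ischemia in either experiment. Of all genes, 11.3% were called higher and 9.1% lower in untreated cells and 9.03% and 8.11% with DMSO. With VX745 under ischemia 1 was called higher and 0 lower, beside 4.35% and 0.906% of all genes. This was the inflammasome sensor gene NLRP3, at 1.59 ± 0.26 (limma adjusted p = 0.0003166) on 28 to 191 reads. With MK25 under ischemia 1 was called higher and 0 lower, beside 7.02% and 2.65%. That gene was NINJ1, which ruptures the membrane of dying cells, at 0.63 ± 0.10 (limma adjusted p = 0.0001154). MK25 against VX745 gave 0 higher and 1 lower, beside 1.75% and 2.2%, and the latter was NLRP3 at -1.28 (limma adjusted p = 0.002248). Short of 2-fold, HAX1, whose product binds the IL-1α precursor, differed by 0.87 and 0.99 for ischemia (limma adjusted p = 2.355e-07 and 6.86e-10), the pore-forming gasdermin gene GSDME by 0.87 and 0.57 (adjusted p = 1.647e-06 and 3.428e-07) and CASP4 by 0.54 and 0.53 (adjusted p = 0.001279 and 0.0003585), HAX1 and GSDME being chosen after their values were seen. The medians were 0.11 and 0.35 for ischemia, -0.13 with MK25 and 0.14 with VX745 under ischemia.

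Of 30 genes known to be induced by IL-1, 24 had a row in experiment 1 and 25 in experiment 2. For ischemia, 13 were called higher and 1 lower in untreated cells, and 12 higher and 2 lower with DMSO, with medians of 1.13 and 0.88. Of all genes, 11.3% were called higher and 9.1% lower in untreated cells and 9.03% and 8.11% with DMSO. PTGS2, which encodes the prostaglandin enzyme COX-2, rose most, by 5.32 and 4.07, and CCL2, a monocyte chemokine, was the lowest, at -2.09 and -2.44. With VX745 under ischemia 0 were called higher and 6 lower, beside 4.35% and 0.906% of all genes, CXCL8, the neutrophil chemokine, the most at -1.39 (limma adjusted p = 1.412e-08). With MK25 under ischemia 3 were called higher and 6 lower, beside 7.02% and 2.65%, with CCL2 at 0.95 and MMP1 at -1.24 as the extremes. The medians were -0.38 with VX745 and 0.17 with MK25. In the regular condition 0 were called higher and 1 lower with VX745, beside 0.0642% and 0.0357%, and 5 higher and 0 lower with MK25, beside 1.88% and 0.606%. MK25 against VX745 under ischemia gave 11 higher and 1 lower, beside 1.75% and 2.2% of all genes, with a median of 0.45, beside -0.0057 over all genes. CSF3 led on 1 to 40 reads per library, too few for a fold, and MMP1 was lowest at -1.78.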

How the data were processed

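RNA of 16 LN229 libraries was sequenced by the authors (SMART-Seq mRNA HT and Nextera XT kits), who aligned reads with HISAT2 to GRCh38 and normalized them in Galaxy, where edgeR is named, per the labels and methods. The counting program is not given in the sources used here. The authors deposited log2 normalized CPM per gene and library with a small added prior (2.08 and 2 reads on average in the first and second table), and these were used unchanged. Undoing the logarithm gave whole reads for 100% of values up to 1000 reads in every library (within 0.05 read), which set the depth (20122017 to 37562668 reads) and the floor of 3 reads. The libraries carry no molecular identifiers as far as stated, so the floor covers counting error only. Entrez identifiers were matched to RefSeq symbols (99.4% and 99.3%).

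Each experiment was fitted alone with limma 3.58.1 in R 4.3.3, with 1 mean per group and a variance trend, with two-sided p-values and Benjamini-Hochberg adjustment across every gene of the table. A count test was not the main test because the deposited values are log2 values, and voom was run on the recovered reads instead. There were 9 comparisons. Calls needed an adjusted p under 0.05 and 2-fold (ischemia), 1.5-fold (inhibitors) or any size (interactions). The fit was tried on simulated counts with the same dispersion for every gene, for the ischemic against regular comparisons only. The inhibitor comparisons and interactions were not covered by it. All members and all called members of the pathway lists could be named, by the largest rise and fall per list, together with genes needed for a pathway step. PTPRC and other marker genes are named to account for the marker lists. Members, lists and tests were chosen with earlier results of these data known. Libraries were treated as unpaired in the main fit. In experiment 2, columns were matched to replicates by their number, which the labels do not state. Alternatives were other scaling, filters, variance settings, voom, thresholds, the replicate block, only the groups compared, and each library left out. Figures were drawn with matplotlib 3.10.9 in Python 3.11.15.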

Additional observations from a re-analysis of the deposited data

Results flagged for a closer look

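In 5 cases the difference from DMSO was not the same in the ischemic and the regular condition, by the interaction term of limma in the second experiment. For MK25 the interaction was -2.14 for IL1RL1, -0.74 for IL1R1, -0.73 for IL1RAP and -0.48 for IL1B on the log2 scale, and for VX745 it was -0.69 for IL1RL1. IL1RL1 is the member for which both inhibitors passed, though with VX745 neither the ischemic nor the regular difference passed alone in the main fit. Of these, IL1B with MK25 and IL1RL1 with VX745 each missed the threshold when certain single libraries were left out (adjusted p up to 0.06635 and 0.06853), and IL1RL1, IL1R1 and IL1RAP with MK25 did not. Depth and summed glioma markers, a sum that leans on VIM, were both higher in most ischemic than regular libraries. Their part in these differences was not tested.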

How the results depend on the processing

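The called members numbered 4 for ischemia in either experiment, apart from 6 by adjusted p alone in untreated cells, and 4 in the MK25 interaction under every setting with all libraries. By adjusted p alone they numbered 7 rather than 5 with MK25 under ischemia and 3 rather than 2 in the regular condition. Over all genes, adjusted p alone passed 9540 of 13559 for ischemia in untreated cells. With MK25 it passed 5850 of 14024 under ischemia and 1712 in the regular condition. For VX745 under ischemia it passed 4051, and 1427 genes were lower with MK25 than with VX745. The members called with VX745 under ischemia went from 1 to 2 with quantile normalization and to 4 by adjusted p alone, and those lower with MK25 than VX745 to 4 by adjusted p alone. The VX745 call in the regular condition fell to 0 without a variance trend, with voom and with only the groups compared. The VX745 interaction went to 2 members with median centring, quantile normalization or a mean of at least 1 CPM. Without 1 library each, the counts ran from 4 to 4 for ischemia with DMSO, 1 to 2 and 4 to 5 for VX745 and MK25 under ischemia, 0 to 1 and 1 to 2 in the regular condition, 1 to 2 for MK25 against VX745, and 0 to 2 and 3 to 4 for the VX745 and MK25 interactions. A group left with 1 library was assumed to vary like the other groups, and in the first experiment this left 1 residual degree of freedom, so its p-values without a library are not given.

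Values that changed sign were all short of a call. Quantile normalization put IRAK1 with VX745 under ischemia at 0.082 and in the MK25 interaction at 0.15, and IL1R1 with MK25 in the regular condition at -0.0028, and voom put the MK25 interaction of IRAK2 at 0.0067. Without 1 library each, the ischemia difference with DMSO ran from -0.22 to 0.020 for IL1R1, -0.041 to 0.037 for IRAK1 and -0.0090 to 0.19 for IRAK2. In the regular condition IRAK2 with VX745 ran from -0.021 to 0.077, and with MK25 IL1R1 from -0.054 to 0.15 and IL1RAP from -0.023 to 0.11. IRAK2 ran from -0.074 to 0.17 for MK25 against VX745, IRAK1 from -0.0037 to 0.074 in the VX745 interaction, and IRAK1 from -0.081 to 0.072 and IRAK2 from -0.13 to 0.12 in the MK25 interaction. The cause was not tested. Over the member differences and alternatives, apart from left-out libraries of the first experiment, 1031 values kept their direction and side, 20 were weaker, 18 stronger and 23 changed sign.

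Libraries with the same replicate number deviated together little (r from -0.09 to 0.13 over 15 pairs of groups in the second experiment). In the first experiment r was 0.15 for the 1 pair. Such values cannot show whether the libraries were paired. With the replicate number as a block the called members numbered 4 for ischemia in either experiment and 5 for MK25 under ischemia, no count changed, and the adjusted p of IRAK2 was 0.04333 with VX745 under ischemia and 0.03294 with MK25 in the regular condition. With 2 libraries per group, differences of low genes such as IL1B in the first experiment have the widest intervals.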
